A study of Mus musculus with 2 samples.

Results

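Cohesin, its loaders and CTCF were described here by 10 genes, taken by name from the deposited expression table with all of their records: Smc3, Rad21, Stag1, Nipbl, Mau2, Wapl, Pds5a, Pds5b, Esco2 and Ctcf. They made up 14 of the 37178 records of the table, and 10 of its 29833 genes. A record is 1 gene with 1 transcript biotype. Of the 10 genes, 6 had a protein-coding record only, and Stag1, Wapl, Pds5b and Ctcf had a second record labelled lncRNA, whose transcript is annotated in GENCODE M21 as a processed transcript of the same gene. Total RNA came from 2 biological replicates of F123, male mouse embryonic stem cells (mESCs) whose maternal genome is S129 and whose paternal genome is CAST, grown with leukemia inhibitory factor, first on fibroblast feeders and then without them before harvest. All cells shared this 1 genotype and there was no treatment, so the only comparison the design holds is that of the CAST with the S129 allele inside the same cells. Because a single cross in 1 direction was used, strain and parent of origin cannot be told apart. Every deposited value is a single one for both replicates, taken here as pooled, and no spread between replicates could be computed.

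Cohesin is a protein ring that holds sister chromatids together and folds chromosomes into loops. Its ring is built from the ATPases SMC1A and SMC3, closed by the kleisin RAD21 and bound by a STAG protein. NIPBL with MAU2 puts the ring on DNA and drives loop extrusion, WAPL with the PDS5 proteins takes it off, and ESCO2 acetylates SMC3 during DNA replication so that cohesion lasts. CTCF, a zinc finger protein, binds DNA in a fixed orientation and halts the extruding ring, and the anchors of many loops and domain borders in mESCs carry both. The X-linked partners Smc1a and Stag2 were not analysed here, since the table holds chromosomes 1 to 19.

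Marker genes of mESCs, fibroblast feeders and differentiated lineages were read to describe the cells. All 9 mESC markers, such as Pou5f1 and Sox2, had a TPM (a level per transcript length and library size) of at least 1 in their protein-coding records. Their median was 118.6, with a range from 12.1 to 380.8. Of 7 fibroblast feeder markers, 2 reached a TPM of 1 in their protein-coding records, with a highest value of 3.06. The lncRNA records of the feeder markers Thy1 and Col1a1 had a TPM of 7.0 and 2.90. All 7 markers of differentiated lineages reached a TPM of 1 in their protein-coding records as well, at 1.74 to 21.4. This range overlapped that of the mESC markers. The part of feeder or differentiated cells in the values of the cohesin and CTCF genes was not tested. A record with a TPM of at least 1 held a median of 397 allelic reads, which are reads that cover a base differing between the strains. The CAST share of all allelic reads in the table was 50.4%.

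The promoters of 4 of these genes shared a short sequence, which was noticed after the windows had been read and is given as a description. RefSeq start regions (GRCm38.p6, from 250 bases before to 50 bases after a start) were matched by symbol for 7 of the 10 genes in 8 windows, with a second window for Mau2. The octamer AAAATGGC, searched on both strands, was present in 4 of the 8 windows, compared with 1.54% of all 32851 windows. A base sequence of this kind is known from the binding motif of YY1, a zinc finger factor. These 4 windows are printed from 5′ to 3′ on the gene's strand, with the octamer or its reverse complement in capitals, to show where it stands in each. The close variant AAGATGGC of the octamer was in none of the 8 windows and in 2.75% of all. The shares of all windows were not matched for CG dinucleotides, whose median was 38 in the 8 windows and 7 in all. A match of letters is not a measured binding site.
Smc3 (chr19:53600146-53600445, + strand): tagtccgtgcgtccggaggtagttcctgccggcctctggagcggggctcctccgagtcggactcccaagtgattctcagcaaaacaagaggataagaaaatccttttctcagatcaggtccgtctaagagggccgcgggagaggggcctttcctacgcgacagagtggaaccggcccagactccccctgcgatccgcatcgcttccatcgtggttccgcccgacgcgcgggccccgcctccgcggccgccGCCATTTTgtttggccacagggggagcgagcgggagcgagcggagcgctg
Ctcf (chr8:105636288-105636587, + strand): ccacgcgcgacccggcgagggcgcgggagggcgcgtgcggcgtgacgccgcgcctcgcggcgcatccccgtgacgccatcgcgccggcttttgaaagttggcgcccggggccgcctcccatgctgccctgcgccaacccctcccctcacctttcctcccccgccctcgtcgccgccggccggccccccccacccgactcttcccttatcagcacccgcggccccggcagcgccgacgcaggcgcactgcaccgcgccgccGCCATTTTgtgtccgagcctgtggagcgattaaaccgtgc
Pds5b (chr5:150673577-150673876, + strand): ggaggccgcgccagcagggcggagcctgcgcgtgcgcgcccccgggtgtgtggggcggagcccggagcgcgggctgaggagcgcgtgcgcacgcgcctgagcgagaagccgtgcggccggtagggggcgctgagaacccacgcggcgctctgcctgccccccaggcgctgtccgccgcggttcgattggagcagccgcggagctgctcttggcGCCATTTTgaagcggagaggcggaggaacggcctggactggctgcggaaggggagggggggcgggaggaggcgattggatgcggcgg
Stag1 (chr9:100643198-100643497, + strand): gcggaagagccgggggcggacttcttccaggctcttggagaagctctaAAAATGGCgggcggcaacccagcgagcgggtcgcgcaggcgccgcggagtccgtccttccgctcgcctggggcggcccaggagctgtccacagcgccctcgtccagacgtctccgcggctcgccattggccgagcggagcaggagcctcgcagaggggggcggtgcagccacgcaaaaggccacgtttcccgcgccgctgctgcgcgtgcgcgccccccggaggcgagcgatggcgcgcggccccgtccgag

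In Smc3 the octamer began at the RefSeq start itself (0 bases from it), in Ctcf 10 bases after it, in Pds5b at −37 and in Stag1 at −202 bases. It lay on the reverse strand in Smc3, Ctcf and Pds5b and on the forward strand in Stag1. The RefSeq start was 2 bases away from the start of the record for Smc3, 41 for Ctcf, 88 for Pds5b and 322 for Stag1. The windows were rich in CG dinucleotides, with a median of 38 in the 8 windows against 7 in all windows, and with 55 in Pds5a, 47 in Ctcf, 43 in Stag1, 41 in Pds5b, 35 in Wapl, 32 in Smc3 and 21 at the start of the Mau2 record. The second window of Mau2, 13221 bases inside the gene, held 1. A GC box (GGGCGG, both strands) was found in 7 of the 8 windows and in 35.7% of all windows. TATAAA was in none of the 8 and in 13.6% of all, and CCAAT in 3 of the 8 and 37.4% of all. CCGGAAG and AAGATGGC, which 8.86% and 2.75% of all windows hold on either strand, were in none of the 8, nor was the palindromic NRF1 motif (0.971% of all). The windows carry the bases of the reference strain, not those of CAST or S129.

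All 10 genes were expressed. In the protein-coding records, the TPM over the transcript ranged from 1.91 in Stag1 to 45.2 in Esco2, a 23.6-fold range (62.2-fold over exons) whose low end is a short isoform record, with a median of 12.9 compared with 6.70 in all 10902 protein-coding records with a TPM of at least 1. Esco2 stood highest, followed by Smc3, Rad21, Wapl, Ctcf, Pds5a, Mau2, Nipbl, Pds5b and Stag1. The TPM over exons gave the same order, except that Wapl and Rad21 changed places. Without replicate values it cannot be said which neighbours in this order differ beyond their spread. All TPM comparisons below are of levels per length.

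**Figure D1:**
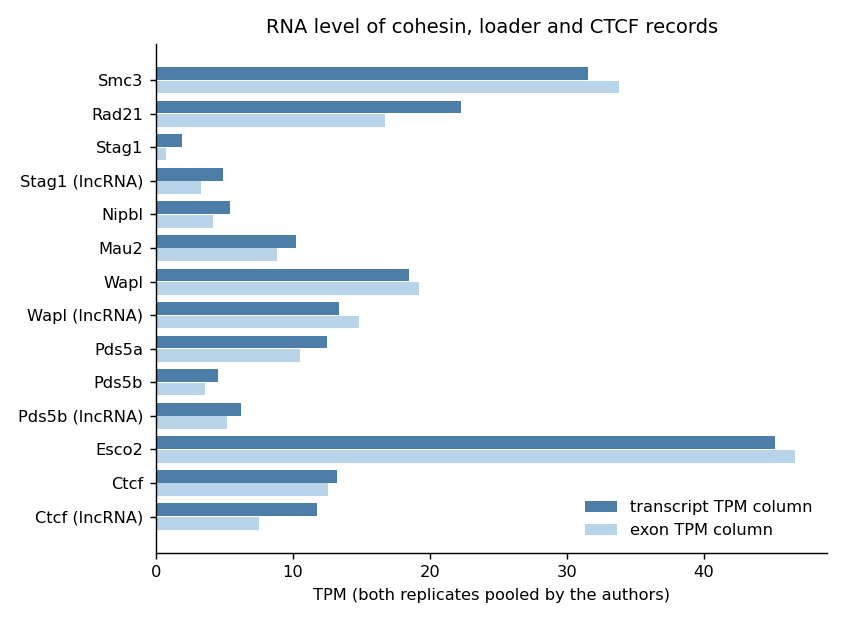
TPM of the 14 records of cohesin, its loaders and CTCF, as the authors' values for both replicates pooled. Dark bars are the deposited transcript TPM and light bars the exon TPM; Esco2 and Smc3 are highest, at 45.2 and 31.5 over the transcript, and the protein-coding record of Stag1 is lowest, at 1.91.

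Among the subunits of the ring, Smc3, which encodes an ATPase arm, had a TPM of 31.5 over the transcript and 33.8 over exons, above 87.5% of expressed protein-coding records. Rad21, which encodes the kleisin that closes the ring, had 22.3 over the transcript and 16.8 over exons. The level of Smc3 was thus 1.42 times that of Rad21 over the transcript and 2.02 times over exons. The record of Rad21 stands for a short isoform with 5 exons and 59.9% of the span of the gene. Stag1, which encodes 1 of the alternative STAG subunits, had 1.91 over the transcript and 0.751 over exons in its protein-coding record, at the 14.2 percentile of expressed protein-coding records. That record is also a short isoform with 7 exons and 36.8% of the gene's span. The lncRNA record of Stag1, whose 26 exons lie further downstream, had a TPM of 4.87. For Rad21 and Stag1 the value of 1 short isoform record was therefore not a level of the whole gene.

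The loader genes were both of moderate level. Mau2, which encodes the small partner of NIPBL, had a TPM of 10.2 over the transcript and 8.82 over exons. Nipbl, whose protein drives loop extrusion, had 5.40 and 4.16. Mau2 was 1.89 times as high as Nipbl over the transcript and 2.12 times over exons. Both records span the whole annotated gene, with 19 exons in 26.6 kb for Mau2 and 47 exons in 153.8 kb for Nipbl.

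Of the genes that release or stabilize cohesin, Wapl had a TPM of 18.5 over the transcript and 19.2 over exons. Pds5a and Pds5b encode related proteins that bind RAD21, and their TPM over the transcript was 12.5 and 4.56, so that Pds5a was 2.75 times as high (2.91 times over exons). Esco2, the acetyltransferase gene of S phase, reached 45.2 over the transcript and 46.7 over exons, above 91.8% of expressed protein-coding records, and was 1.43 times as high as Smc3. Ctcf had 13.2 over the transcript and 12.6 over exons. The short isoform record of Rad21 was 1.68 times as high as Ctcf over the transcript and 1.33 times over exons. The TPM over exons was below that over the transcript in 7 of the 10 protein-coding records, and in 61.5% of all expressed ones.

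The CAST and S129 alleles of all 10 genes were expressed at similar levels. None of the 14 records was called allele-specific (ASE). The call requires at least a 2-fold difference, an adjusted p of at most 0.05 (two-sided exact binomial test, Benjamini-Hochberg adjusted over 18632 records) and a TPM of at least 1. Of the 15935 tested records with this TPM, 14.1% were ASE, and 7.6% of the 4448 of these with at least 1000 allelic reads. The 14 records are not independent. Both records of Ctcf hold the same reads, and the lncRNA records of Wapl and Pds5b lie inside the protein-coding ones. Without the fold minimum, 7 of the 14 records passed the adjusted p, compared with 48.3% of all tested records. All 7 were among the 9 of the 14 with at least 1000 allelic reads, a depth at which 68.9% of all tested records passed, and none of the 5 shallower ones passed. Of these 7, CAST was higher in Smc3, Wapl and Esco2, and S129 was higher in Rad21, Mau2, Pds5a and the lncRNA record of Stag1. In all tested records CAST was higher and past the adjusted p in 25.4% and S129 in 22.9%. The number of records past the unadjusted p of 0.05 was also 7. A read can be counted at several variants, and all counts were taken as independent, so these tests cover counting error only. When reads of 1 gene were instead assumed to be correlated at 0.01 (exact beta-binomial test, Benjamini-Hochberg), none of the 14 passed the adjusted p (lowest 0.429) or an unadjusted p of 0.05.

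**Figure D2:**
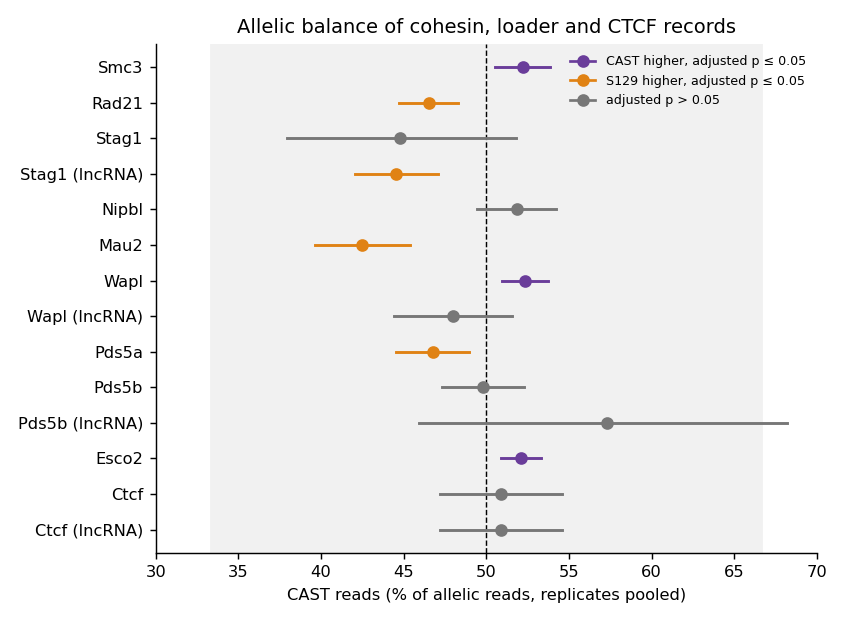
Percent of allelic reads from the CAST allele in the 14 records, both replicates pooled, with 95% exact (Clopper-Pearson) intervals for counting error; purple and orange mark an adjusted p of at most 0.05 with CAST or S129 higher, gray the others, and the shaded band marks differences under 2-fold. All points lie between 42.5% and 57.3%, and the interval of the lncRNA record of Pds5b alone leaves the band.

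The differences that passed the adjusted p were small. The largest was 1.35-fold, in Mau2, and the median absolute log2 fold change of the 14 records was 0.13, compared with 0.36 in all tested records and 0.26 in those with at least 1000 allelic reads. Over the 10 protein-coding records, CAST was higher in 5 and S129 in 5, and their summed reads were 12847 CAST and 12662 S129, or 50.4% CAST. The 95% interval of the fold lay within 2-fold in both directions in 13 of the 14 records. The exception was the lncRNA record of Pds5b, which held 82 reads.

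**Figure D3:**
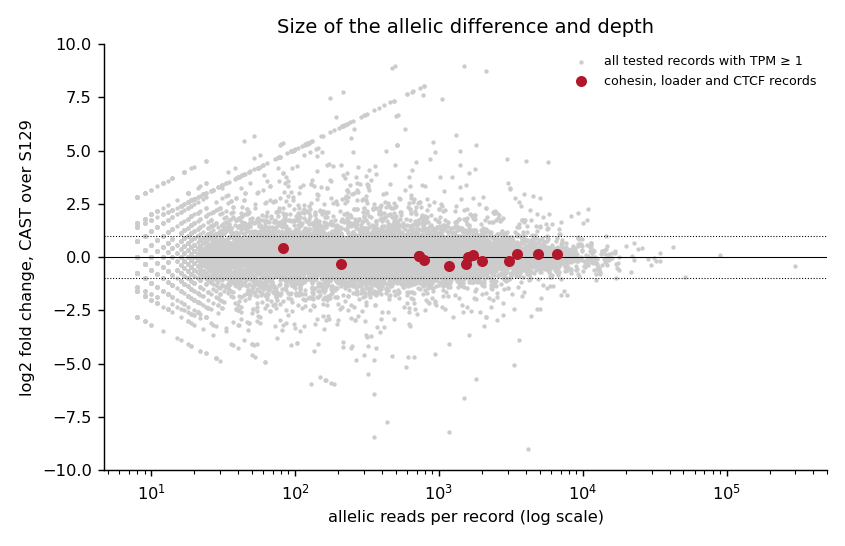
Log2 fold change of CAST over S129 reads against the number of allelic reads (log scale) for all tested records with a TPM of at least 1 (gray) and the 14 records of cohesin, its loaders and CTCF (red). Dotted lines mark 2-fold, gray diagonals at the top and bottom include records with reads from 1 allele only, set to 3 reads for the other, and the red points lie between −0.44 and 0.43.

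In the ring, Smc3 (ENSMUSG00000024974, chr19:53600398-53645833, mm10) had 1824 CAST and 1670 S129 reads at 32 variants, or 52.2% CAST (95% exact interval 50.5 to 53.9). Its log2 fold change was 0.13 (SE 0.05; adjusted binomial p = 0.0226), and this call ended when the CAST share of the whole table was taken as the null (adjusted p = 0.0621). Rad21 (ENSMUSG00000022314, chr15:51973837-51991510) had 1429 CAST and 1644 S129 reads at 70 variants, 3 of them exonic, which is 46.5% CAST (44.7 to 48.3; log2 fold change −0.20, SE 0.05, adjusted binomial p = 0.000388). CAST was thus the higher allele in Smc3, at 1.09-fold, and S129 that in Rad21, at 1.15-fold, with no test of the difference between these genes, whose proteins bind each other in the ring.

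Stag1 (ENSMUSG00000037286, chromosome 9) leaned to S129 in 2 stretches that do not overlap. The protein-coding record (chr9:100643770-100776795) had 94 CAST and 116 S129 reads at 17 variants, all of them intronic, or 44.8% CAST (37.9 to 51.8; log2 fold change −0.30, SE 0.20, adjusted binomial p = 0.241). At this depth of 210 reads, a difference of 1.39-fold or more was needed to pass. The lncRNA record (chr9:100796704-100957416) had 690 CAST and 859 S129 reads at 96 variants, or 44.5% CAST (42.0 to 47.1; log2 fold change −0.32, SE 0.07, adjusted binomial p = 7.47e-05). Together the 2 stretches held 784 CAST and 975 S129 reads, or 44.6% CAST (42.2 to 46.9). Genes annotated as uncertain transcripts (TEC) on the same strand overlap both, Gm37204 and Gm38297 the first and Gm3081 the second, and their reads cannot be told apart from those of Stag1.

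Of the loader genes, Mau2 passed the adjusted p and Nipbl did not, and no test of the difference between them was run. Mau2 (ENSMUSG00000031858, chr8:70016123-70042734) had 498 CAST and 674 S129 reads at 49 variants, 21 of them exonic, or 42.5% CAST (39.6 to 45.4). Its log2 fold change of −0.44 (SE 0.09, adjusted binomial p = 1.47e-06) was the largest in absolute size of the 14 records, at the 56.5 percentile of absolute log2 fold changes of all tested records. Nipbl (ENSMUSG00000022141, chr15:8290617-8444463) had 893 CAST and 830 S129 reads at 80 variants, or 51.8% CAST (49.4 to 54.2; log2 fold change 0.11, SE 0.07, adjusted binomial p = 0.225). A difference of 1.12-fold would have passed at the depth of Nipbl, and its interval reached a log2 fold change of 0.24.

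Among the release factors, Wapl (ENSMUSG00000041408, chr14:34674173-34746080) had 2554 CAST and 2326 S129 reads at 36 variants, or 52.3% CAST (50.9 to 53.8; log2 fold change 0.13, SE 0.04, adjusted binomial p = 0.00333). Its lncRNA record (chr14:34709080-34724829) lies inside the protein-coding one and held 1 exonic variant, with 375 CAST and 407 S129 reads (48.0% CAST, 44.4 to 51.5, adjusted binomial p = 0.391). The reads at this variant equal 16.0% of the reads of the protein-coding record. This variant lies inside the protein-coding span and is assumed to be among the 36. Under that assumption the other 35 had 2179 CAST and 1919 S129 reads, a mean of 117.1 reads per variant, or 53.2% CAST (51.6 to 54.7). The intervals then did not overlap, by a narrow margin (51.5 against 51.6). They cover counting error only, and no test of the difference was run. The non-reference base of this variant lay on S129.

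Pds5a (ENSMUSG00000029202, chr5:65615260-65697856) had 925 CAST and 1054 S129 reads at 77 variants, or 46.7% CAST (44.5 to 49.0; log2 fold change −0.19, SE 0.07, adjusted binomial p = 0.0103). TEC genes named Gm42728 and C030017G13Rik overlap it on the same strand, as do the snRNA gene Gm24630 and the sense intronic gene Gm43807 with Pds5b. Their reads cannot be told apart. On the opposite strand, Gm42727, Gm42729 and Gm24399 overlap Pds5a and Gm26013 overlaps Pds5b. The strand setting of the counting is not given, so their reads may be included too. Pds5b (ENSMUSG00000034021, chr5:150673739-150810690) was closest to balance of all records, with 791 CAST and 798 S129 reads at 78 variants, or 49.8% CAST (47.3 to 52.3; log2 fold change −0.01, SE 0.07, adjusted binomial p = 0.951). Its nested lncRNA record (chr5:150759364-150769865) had 47 CAST and 35 S129 reads at 5 intronic variants, or 57.3% CAST (45.9 to 68.2; adjusted binomial p = 0.339). At 82 reads a difference under 1.73-fold could not have passed.

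Esco2 (ENSMUSG00000022034, chr14:65819038-65833994) had the most allelic reads of the 14 records, 3467 CAST and 3191 S129 at 65 variants, of which 33 were exonic. Its CAST share of 52.1% (50.9 to 53.3; log2 fold change 0.12, SE 0.04, adjusted binomial p = 0.00225) passed at a 1.09-fold difference, where 1.06-fold was the smallest that could pass. Ctcf (ENSMUSG00000005698, chr8:105636579-105682922) had 372 CAST and 359 S129 reads at 29 variants in both of its records, which hold the same reads, or 50.9% CAST (47.2 to 54.6; log2 fold change 0.05, SE 0.11, adjusted binomial p = 0.778). Of the 29 variants, 2 were exonic. On the opposite strand, Agrp, Gm5914 and Gm5915 overlap both records of Ctcf. As the strand setting of the counting is not given, their reads may be included in those of Ctcf. The depth of 731 reads allowed differences of 1.19-fold or more to pass in Ctcf.

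Most of the variants behind these values were intronic. Of the 533 variants in the 10 protein-coding records, 420 were intronic (78.8%) and 113 exonic; how the reads split between them was not analysed here. Their density ranged from 0.128 per kb in Stag1 to 4.35 per kb in Esco2, with a median of 0.665 per kb. In 8 of the 10 genes the base that differs from the reference lay on CAST at every variant, as in 52.8% of the 9210 tested records with at least 10 variants. The exceptions were Wapl, with 13 of 36 variants differing on S129, and Mau2, with 35 of 49 (71.4%). Variants differing on S129 were the majority in 6.44% of those 9210 records. Mau2 had the largest difference of the 10 genes. Its reference bases lay mainly on CAST, while its higher allele was S129. The part of the reference base in its difference was not tested.

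The neighbouring genes on the same chromosomes were described for comparison. Within 500 kb of the 10 genes lay 102 protein-coding records of other genes that do not overlap them, have a TPM of at least 1 and hold at least 20 allelic reads. Of these 102, 17 (16.7%, beside 12.6% of all such records in the table) were ASE, and 8 of the 10 genes had at least 1 ASE neighbour. The number of neighbours ran from 2 around Pds5b to 30 around Mau2 and Ctcf. The share of all genes with an ASE neighbour was not computed, so the count of 8 has no base to be read against. Around Mau2, the median CAST share of 30 neighbours was 53.8%, 5 were ASE toward CAST and 1 toward S129, and 29 of the 30 lay above Mau2's own share. Of the neighbours' variants, 41.3% had the non-reference base on S129. Around Wapl, the median of 5 neighbours was 38.2% CAST, with 2 ASE toward S129, and 4 of the 5 lay below Wapl. There, 48.2% of the neighbours' variants had the non-reference base on S129.

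All 11 neighbours of Pds5a had a higher CAST share than Pds5a, and 4 of them were ASE toward CAST. All 3 neighbours of Rad21 were also higher than Rad21, at 48.7% to 58.6%, and none was ASE. Around Ctcf, 1 of 30 neighbours was ASE, with 0.338% CAST reads, while their median was 51.1% and that of Ctcf lay close to it. Neighbours share a haplotype and are not replicates, so these counts are descriptions.

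**Figure D4:**
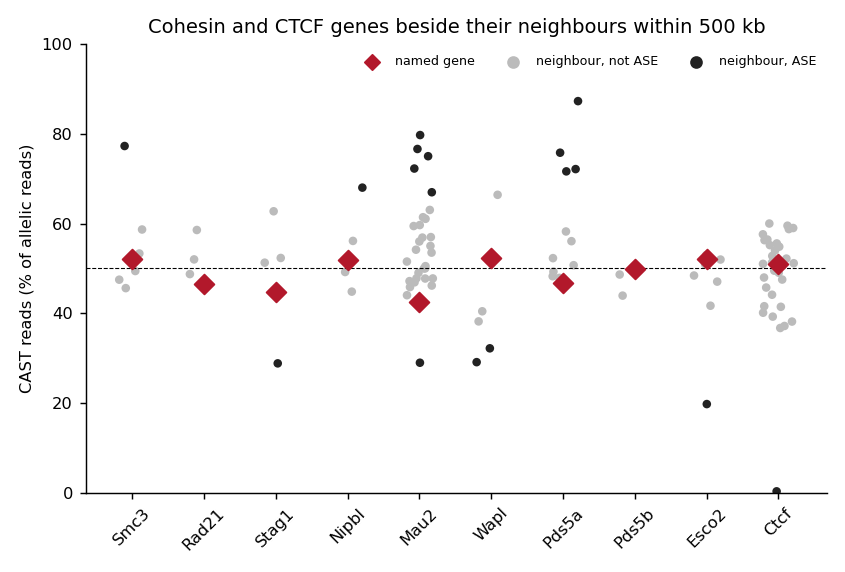
Percent of allelic reads from CAST in the protein-coding record of each of the 10 genes (red diamonds) and in other protein-coding genes within 500 kb (gray, and black where ASE), with points spread sideways only for legibility. The red diamonds lie between 42.5% and 52.3%, and 17 of the 102 neighbours are ASE.

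The other genes of the cohesin and CTCF pathway were taken from a list of 27 genes on chromosomes 1 to 19, with 34 tested records at a TPM of at least 1. Of these 34, 2 were ASE, beside 14.1% of all tested records, and 20 (58.8%) passed the adjusted p alone, beside 48.3%, with CAST higher in 9 and S129 in 11. The 34 records held a median of 981 allelic reads, against 397 in all tested records. Of all tested records with at least 1000 allelic reads, 68.9% passed. The ASE gene was Stag3, which encodes the STAG subunit of meiotic cohesin. Its protein-coding record held 23 CAST and 110 S129 reads, or 17.3% CAST (11.3 to 24.8; log2 fold change −2.26, SE 0.33, adjusted binomial p = 7.35e-14). Its lncRNA record held 13 and 60, or 17.8% CAST (9.84 to 28.5; log2 fold change −2.21, SE 0.44, adjusted binomial p = 1.24e-07). These 2 records lie at separate positions (chr5:138280240-138290751 and chr5:138299176-138301441), at TPM values of 5.11 and 15.1. They cover 32.7% and 7.05% of the gene's span and hold 6 and 4 variants. At every one of these variants the reference base lay on S129, the higher allele, and its part in the difference was not tested. Neither record was called when a correlation of 0.05 was assumed. Stag1, the STAG gene of the 10, leaned to the same allele but at 1.23-fold and 1.25-fold. No test of the difference between the 2 genes was run.

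By role, none of 12 records of cohesion establishment genes, none of 10 records of mitotic removal and cleavage genes and none of 7 records of partners of CTCF at its sites was ASE, and 6, 8 and 2 of them passed the adjusted p alone, beside 48.3% of all tested records. Of 5 records of meiotic genes, 4 passed it with S129 higher, beside 22.9% of all tested records, and 2 of these 4 belong to Stag3. These lists are small, and no direction of a list was tested. Median depths were 1398 allelic reads for establishment, 1758 for removal and cleavage, 147 for partners of CTCF and 133 for meiotic genes. A share of 68.9% passed among all tested records with at least 1000 reads. Records of 1 gene can share reads, as both records of Adnp do. Plk1, the kinase that frees cohesin from chromosome arms in prophase, was among the highest of the list with a TPM of 59.5, with 485 CAST against 590 S129 reads (log2 fold change −0.28, adjusted binomial p = 0.00424). Pttg1, which encodes securin, the inhibitor of the cohesin-cleaving protease separase, had a TPM of 64.6 in its lncRNA record, with 2747 CAST against 2975 S129 reads (adjusted binomial p = 0.00717, 1.08-fold), and 3257 against 3347 in its protein-coding record, which did not pass (adjusted binomial p = 0.398, 1.03-fold). Maz, a zinc finger gene whose protein binds beside CTCF, had the highest TPM over the transcript, at 70.0. Over exons Maz had 44.1, below the lncRNA record of Pttg1 (69.6) and Plk1 (69.3). Maz held 40 CAST and 69 S129 reads at 2 variants (log2 fold change −0.79, SE 0.29, adjusted binomial p = 0.0171).

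Condensin and SMC5/6 are built on ATPases of the same family as cohesin. None of 10 tested condensin records was ASE and 5 passed the adjusted p alone, while 1 of 11 SMC5/6 records was ASE and 6 passed, beside 14.1% and 48.3% of all tested records. Median depths were 1387 allelic reads in condensin and 1636 in SMC5/6. With at least 1000 reads, 68.9% of all tested records passed. Smc4, an ATPase gene of condensin, showed 3135 CAST against 3245 S129 reads in the protein-coding record (adjusted binomial p = 0.274) and 233 against 170 in the lncRNA record, the highest of condensin at a TPM of 57.5 (log2 fold change 0.45, adjusted binomial p = 0.00542). Of the other condensin subunit genes, Ncapd2 had 5600 and 5735 (adjusted binomial p = 0.320) and Ncapg2 had 500 and 379 (log2 fold change 0.40, adjusted binomial p = 0.000184). Ncaph2, at a TPM of 45.3, held 23 reads only. In SMC5/6, the ASE record was Nsmce3, a subunit gene with a single exon (chr7:64867052-64872997), with 112 CAST and 35 S129 reads at 2 variants (log2 fold change 1.68, SE 0.28, adjusted binomial p = 8.93e-10). This call ended when a correlation of 0.05 was assumed or at least 3 variants were required. Fam189a1 overlaps it on the same strand. Smc6 was read by 1735 CAST against 1559 S129 reads (log2 fold change 0.15, adjusted binomial p = 0.00621). Slf2 had 1392 and 1124 (0.31, adjusted binomial p = 5.02e-07). Nsmce4a had 1377 and 1638 (−0.25, adjusted binomial p = 9.46e-06), with the same reads in both of its records.

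**Figure D5:**
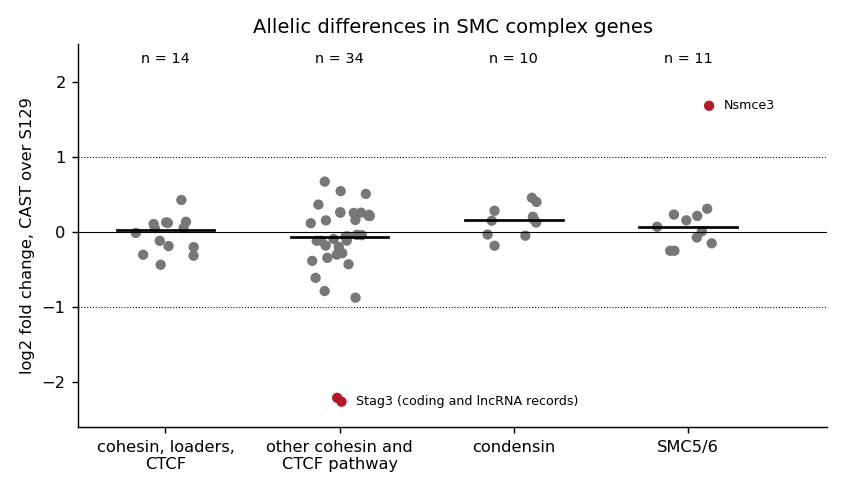
Log2 fold change of CAST over S129 reads for tested records with a TPM of at least 1: 14 of cohesin, its loaders and CTCF, 34 of other genes of the pathway, 10 of condensin and 11 of SMC5/6. Each point is a record, bars are medians, dotted lines mark 2-fold, and red marks the ASE records, which belong to Stag3 and Nsmce3.

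The median absolute log2 fold change was 0.13 in the 14 records, 0.25 in the rest of the pathway, 0.17 in condensin and 0.21 in SMC5/6, at median depths of 1569, 981, 1387 and 1636 allelic reads. These medians describe lists of unlike size, and no difference between them was tested.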

How the data were processed

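Total RNA from 2 biological replicates of F123 mESCs was sequenced as stranded libraries. Reads were aligned by the authors to mm10 (GRCm38.p6) with STAR (version 2.7.2c) and the F123 variants, and duplicates were removed with Picard. For the allelic counts, the authors ran GATK ASEReadCounter at variants in exons and introns and deposited sums over the variants of a record. Each sum is a single value for both replicates. Pooling over the replicates was taken from this and is not stated by a label. A minimum of 20 reads per variant is stated, yet the mean per variant was below it in 3 of the 14 records, at 12.3, 16.1 and 16.4. TPM values were deposited for 1 isoform per gene and transcript biotype, and the authors counted reads with HTSeq over exons and introns. Among several isoforms, the authors chose by RNA polymerase II occupancy at the start. Where this did not decide, they took the longest isoform or, failing that, a random one. Which step set each record used here is not known. How the exon and transcript TPM differ beyond their names, and the strand setting of the counting, are not given in the sources used here. The number of variants per record was used as deposited. The authors' columns of p-values, fold changes, allelic ratios and classes were not used.

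CAST and S129 counts were tested per record with a two-sided exact binomial test against equal shares and Benjamini-Hochberg adjustment over 18632 records, with the study's ASE thresholds. Intervals (exact Clopper-Pearson, 95%) and SEs cover counting error only, and are narrower in deeper records. Where 1 allele had no reads, 3 were assumed. The test was checked on simulated counts. All 14 transcripts had the same start and end in GENCODE M21. The text names the 10 genes and, of the other lists, every ASE record, the 3 genes with the highest TPM and the 2 with the largest absolute log2 fold change (at least 20 allelic reads). Genes, lists and this rule were chosen with earlier results of these data known. Alternatives changed the minimum of reads, variants, TPM and fold, the null share, the assumed correlation, the biotypes and the added reads. Versions were 3.11.15 for Python, 1.17.1 for scipy, 2.3.3 for pandas, 2.4.6 for numpy and 3.10.9 for matplotlib.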

Additional observations from a re-analysis of the deposited data

How the results depend on the processing

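None of the 14 records of cohesin, its loaders and CTCF was ASE under any of the 10 alternatives. This outcome was fixed by the fold minimum, since the largest fold of the 14 records was 1.35. That lies below 2-fold and below the alternative of 1.5-fold, so no alternative could have added a call. The number past the adjusted p alone was 7 in the main test, 7 with at least 20 or 100 allelic reads or at least 3 variants, 6 with a null share of 50.4% CAST, 6 in protein-coding records only, and 0 of 14 with an assumed intra-gene correlation of 0.01 or 0.05 (exact beta-binomial tests, unadjusted p under 0.05 in 0 records). Over all records those past the adjusted p fell from 7701 to 2278 and 487. Of the other pathway records, 2 were ASE in the main test, 1 with at least 100 allelic reads, 1 with protein-coding records only, 0 with a correlation of 0.05 and 5 at a 1.5-fold minimum, where Chtf18, Sgo2a and Maz were added (the first and second named after their values were seen). Of condensin and SMC5/6, 1 record was ASE in the main test, and 0 with a correlation of 0.05 or with at least 3 variants, since Nsmce3 holds 2. The number of all ASE records was 2249 in the main test, 1444 with at least 100 reads, 487 with a correlation of 0.05, 1117 at a TPM of at least 5 and 4104 at 1.5-fold. Adding 1 read to each allele changed no direction and no call of the 14 records. The TPM percentile of the protein-coding record of Stag1 moved most with the records it was ranked among, from 15.7 of those with a TPM of at least 1 to 59.3 of all records. No paired analysis was possible because each deposited value is a single one for both replicates, and for the same reason no replicate could be left out. Depth limits the lncRNA record of Pds5b (82 reads) and the protein-coding record of Stag1 (210 reads).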
